A study of Mus musculus with 16 samples.

Results

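The genes described here are 29 type I interferon response genes, taken as a list of mouse symbols and matched through their Ensembl identifiers. All 29 were found among the 46517 gene identifiers of the count files. They were followed in each of 16 RNA-seq libraries of CD4+CD8+ (double-positive) thymocytes, which were sorted live by flow cytometry from the thymus of 16 mice aged 6 to 7 weeks, with 1 library per mouse. The groups were 5 NOD-AI4-60A mice, labelled as Nfkbid transgenic (3 males and 2 females), 5 NOD-AI4-Nfkbid-/- mice, labelled as knockouts (4 males and 1 female), and 6 NOD-AI4 controls (3 males and 3 females). All 3 groups share the NOD background and the AI4 transgenes, which give the thymocytes the T cell receptor of an autoreactive CD8 T cell clone. The series title places overexpression and ablation of Nfkbid beside the thymic deletion of AI4 cells. The product of Nfkbid is IκBNS, an atypical IκB protein that acts in the nucleus. The sources used here do not give the promoter of the transgene in line 60A.

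Type I interferons bind a receptor made of IFNAR1 and IFNAR2, whose kinases JAK1 and TYK2 phosphorylate STAT proteins. STAT2 joins IRF9 in a complex that binds the interferon-stimulated response element (ISRE) and switches on many genes, whose products sense viral RNA and DNA, block translation, degrade RNA or modify proteins. IRF7, itself induced, raises further interferon production, while USP18 limits signalling at the receptor. In the thymus, a tonic type I interferon signal is known to act on maturing single-positive thymocytes.

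Library totals lay between 17955743 and 35637813 estimated counts. Totals were 18546570 to 25836799 in transgenic, 21662210 to 35637813 in knockout-labelled and 17955743 to 26586220 in control libraries. Among controls sex and depth coincide, with 25052921 to 26586220 counts in the males and 17955743 to 18888169 in the females. Every control mouse had an identifier with the prefix AT and every other mouse one with LS, so group and prefix cannot be told apart when controls are set against the other mice; the labels do not say what the prefix stands for. The transgenic v knockout-labelled comparison lies within the LS mice. Nfkbid itself was at 310, 239, 115, 194 and 183 CPM (counts per 1000000, on TMM-scaled totals) in transgenic replicates 1 to 5, at 28.2 to 37.8 CPM in knockout-labelled libraries and at 28.9 to 36.9 CPM in controls. The knockout-labelled libraries were therefore not lower than controls in Nfkbid transcript (log2 fold change 0.07, SE 0.15, edgeR adjusted p = 0.78). The sources used here do not say which part of the gene is deleted, so this total does not check it. The double-positive markers were present, with summed levels of 5446 to 6069 CPM in transgenic, 5625 to 7193 in knockout-labelled and 5413 to 8198 in control libraries over 10 genes including Cd4, Cd8a and Rag1.

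Promoter sequence was given for 22 of the 29 genes in a RefSeq table of GRCm38.p6, from 250 bases before to 50 after each start site. The ISRE core GAAA-NN-GAAA, where N is any base, searched on both strands, was present in 13 of those 22 genes, against 3.99% of the 27025 genes in the table. The gamma-activated site TTC-NNN-GAA was in 4 of the 22, against 9.55% of genes. An NF-kB-like pattern GGGA-NNNN-CC was in 6 of the 22, against 22.9% of genes. A match describes letters and is not a binding site. The 250 bases before the start are shown for 7 genes whose values are given further on, with matches to the ISRE core in capitals. Isg15 is shown for its overlapping matches, Ifit1 and Oas1a as strongly varying genes, Ifit3 and Ifit3b as near copies, Stat2 as the gene that varied least, and Irf7 as a varying gene with no match.
Isg15, chr4:156200819-156201068, minus strand: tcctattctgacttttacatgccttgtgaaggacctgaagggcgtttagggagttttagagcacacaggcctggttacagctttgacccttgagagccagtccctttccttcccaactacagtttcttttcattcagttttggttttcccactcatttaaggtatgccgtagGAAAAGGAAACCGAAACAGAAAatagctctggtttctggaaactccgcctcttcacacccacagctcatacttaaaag
Ifit1, chr19:34640639-34640888, plus strand: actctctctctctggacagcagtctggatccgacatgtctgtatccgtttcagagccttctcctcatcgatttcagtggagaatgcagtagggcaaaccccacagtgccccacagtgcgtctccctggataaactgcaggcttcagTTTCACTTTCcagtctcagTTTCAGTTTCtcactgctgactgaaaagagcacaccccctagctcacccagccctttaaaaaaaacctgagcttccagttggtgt
Oas1a, chr5:120907526-120907775, minus strand: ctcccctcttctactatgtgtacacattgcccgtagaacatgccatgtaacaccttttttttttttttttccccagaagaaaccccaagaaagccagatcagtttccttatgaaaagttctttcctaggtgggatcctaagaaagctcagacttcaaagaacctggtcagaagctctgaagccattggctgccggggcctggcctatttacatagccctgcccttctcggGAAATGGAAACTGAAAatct
Ifit3, chr19:34583279-34583528, plus strand: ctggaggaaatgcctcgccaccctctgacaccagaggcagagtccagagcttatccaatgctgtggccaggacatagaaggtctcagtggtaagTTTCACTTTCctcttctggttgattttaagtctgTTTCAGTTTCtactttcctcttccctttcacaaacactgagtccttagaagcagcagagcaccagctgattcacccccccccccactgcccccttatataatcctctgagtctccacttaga
Ifit3b, chr19:34607707-34607956, plus strand: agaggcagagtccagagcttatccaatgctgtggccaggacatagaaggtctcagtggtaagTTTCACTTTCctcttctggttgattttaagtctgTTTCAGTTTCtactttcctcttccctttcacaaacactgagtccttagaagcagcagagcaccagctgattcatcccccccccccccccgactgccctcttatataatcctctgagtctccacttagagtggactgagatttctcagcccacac
Stat2, chr10:128270248-128270497, plus strand: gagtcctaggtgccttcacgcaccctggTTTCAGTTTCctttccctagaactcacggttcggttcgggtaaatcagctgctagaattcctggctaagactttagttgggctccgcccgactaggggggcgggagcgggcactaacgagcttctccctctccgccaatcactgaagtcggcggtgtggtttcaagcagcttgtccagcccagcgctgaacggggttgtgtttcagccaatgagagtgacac
Irf7, chr7:141266425-141266674, minus strand: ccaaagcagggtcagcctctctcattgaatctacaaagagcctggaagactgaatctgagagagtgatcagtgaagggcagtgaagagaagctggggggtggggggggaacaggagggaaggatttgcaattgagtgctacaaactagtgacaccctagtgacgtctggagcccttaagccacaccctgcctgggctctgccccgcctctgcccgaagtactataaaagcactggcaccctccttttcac
The Isg15 window held 3 overlapping matches, the first beginning 78 bases before the start site. The Ifit3 and Ifit3b windows each held 2 matches, beginning 156 and 122 bases before the start in Ifit3 and 188 and 154 bases before it in Ifit3b. Aligned without gaps, these windows were identical at 188 of 218 bases (86.2%). The Oas1a matches began 20 and 14 bases before the start. The single Stat2 match began 222 bases before the start, farther away than in any other printed window. The 9 genes of the 22 with no ISRE core in the window were Ifit2, Irf7, Irf9, Oasl1, Oasl2, Cmpk2, Isg20, Ifi44 and Xaf1.

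Several of the 29 genes are neighbours. The 5 Ifit genes lie on chr19 of GRCm38, with Ifit2 at chr19:34550694-34576419 and Ifit1 at chr19:34640871-34650009 at the ends of the group. Oas2 (chr5:120730333-120749853) and Oas3 (chr5:120753098-120777661) lie side by side on chr5, with Oas1a (chr5:120896256-120907521) farther along. Oasl1 and Oasl2 lie together elsewhere on chr5. Mx1 and Mx2 are both on chr16, and Rsad2 (chr12:26442746-26456452) is next to Cmpk2. Estimated counts were whole numbers in every library for 16 of the genes. Irf9, Oas3, Usp18, Ddx58, Xaf1 and Trim30a had fractional counts in all 16 libraries, and Ifit1, Ifit3, Ifit3b, Ifit1bl1, Oas1a, Mx1 and Mx2 in some. A fractional count is a read count that was estimated or divided, and how reads shared with other transcripts or copies were assigned is not stated, so levels of those genes are less certain. Mx2 is annotated as a polymorphic pseudogene.

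Per length of transcript, the genes of the list differed widely in control thymocytes. Zbp1, a sensor of nucleic acids in the Z form, was highest with a control median of 53.2 deposited TPM (transcripts per 1000000; lowest 45.5, highest 127). The RNA sensor gene Ddx58 (39.0 TPM) and the transcription factor genes Irf9 (31.5) and Stat2 (31.3) came next. Each of these 4 genes overlapped its neighbour in the order, with control ranges of 37.9 to 77.6 TPM for Ddx58, 28.1 to 93.1 for Irf9 and 25.7 to 35.5 for Stat2. Trim30a (23.9), Ifi27l2a (21.6), Ifit2 (21.6), Irf7 (21.2), Isg15 (15.5), Xaf1 (14.3), Bst2 (13.5), Usp18 (10.5) and Isg20 (7.84) formed a middle range of control medians. Mx2, Rtp4, Oas3, Ifit1, Oasl2, Ifih1, Ifit3, Oasl1, Oas2, Cmpk2 and Rsad2 had control medians of 4.85 down to 1.02 TPM. Neighbours in this order likewise overlapped in their control ranges. Lowest were Ifit1bl1 (0.465 TPM), Oas1a (0.386), Mx1 (0.364), Ifi44 (0.0907) and Ifit3b (0.0802).

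The genes of the list moved together from library to library, and 3 libraries stood far apart. Transgenic replicate 3 was the highest of the 16 libraries in 29 of 29 genes. Transgenic replicate 5 ranked second in 25 of them, and control replicate 2 came right after them in 25. Summed over the 29 genes, the level was 825.3, 624.1, 2932, 632.2 and 1772 CPM in transgenic replicates 1 to 5. It was 442.0, 411.4, 391.5, 463.7 and 527.5 CPM in knockout-labelled replicates 1 to 5. In control replicates 1 to 6 it was 438.7, 1450, 441.6, 388.6, 427.9 and 415.5 CPM. The other 3 transgenic libraries were thus higher in this sum than every knockout-labelled library and than 5 of the 6 controls, while control replicate 2 was above them. All 3 of the highest libraries came from males. In these bulk libraries, a larger number of responding cells and more RNA per cell cannot be told apart.

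**Figure D1:**
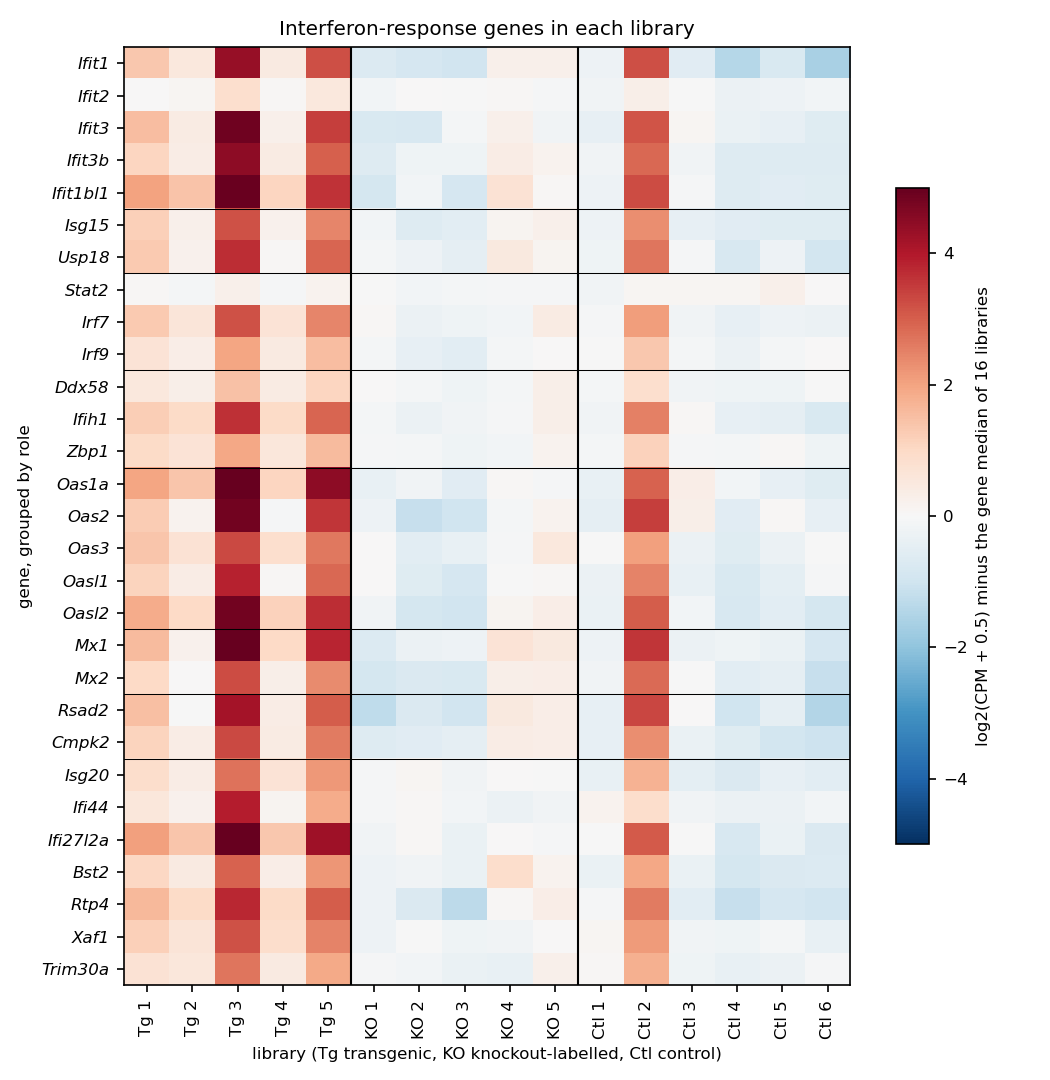
Level of each of the 29 genes (rows, grouped by role) in each of the 16 libraries (columns), as log2(CPM + 0.5) minus the median of that gene over the 16 libraries. Transgenic replicates 3 and 5 and control replicate 2 are red in nearly every row, Stat2 and Ifit2 are almost flat, and the other transgenic libraries are paler red than these 3.

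The size of this swing differed between genes. Between the lowest and the highest library, Oas1a differed 244-fold, Mx1 195-fold and Ifit1bl1 149-fold. Ifit3b and Ifi44 had libraries at 0 counts, and against a floor of 3 counts in the lowest library they were at least 138-fold and 104-fold higher in transgenic replicate 3. Ifit1 differed 79.9-fold, Isg15 15.2-fold, Irf7 12.3-fold, Zbp1 4.53-fold, Ddx58 3.2-fold, Ifit2 2.24-fold and Stat2 1.35-fold. The biological coefficient of variation, which is the spread left within groups after sex is taken into account, had a median of 0.68 over the 28 genes tested, against 0.111 over all 14933 genes tested. It lay above the 90th percentile of all genes in 25 of the 28. Ifit3b was most variable (1.18), and Stat2 (0.0877) and Ifit2 (0.129) varied least.

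Transgenic thymocytes were set against controls to see what accompanies Nfkbid overexpression. Of the 28 genes tested, 14 rose and 0 fell in transgenic libraries, with a median log2 fold change of 1.53, against 0.03 over all genes. Over all genes 23.0% were called higher and 15.6% lower in this comparison. The called genes were the Ifit family members Ifit2 and Ifit1bl1, the transcription factor gene Irf7, the sensors Ddx58, Ifih1 and Zbp1, the oligoadenylate synthetase genes Oas1a, Oas3 and Oasl2, and Isg20, Ifi27l2a, Bst2, Rtp4 and Xaf1. No gene of the list had every transgenic library above every control (0 of 29, against 13.7% of all genes), because control replicate 2 was high. Every transgenic library was above the control median in 28 of 29, all but Stat2, against 31.5% of all genes. Every transgenic library lay above every control other than replicate 2 in 25 of 29 genes, against 14.9% of all genes; the exceptions were Stat2, Oas2, Rsad2 and Ifi44. The test was edgeR's quasi-likelihood test with Benjamini-Hochberg adjustment over 14933 genes at 0.05, and 9 of the 14 called genes had an adjusted p between 0.03 and 0.05, while 9 uncalled ones lay between 0.05 and 0.1. The count was 27 without control replicate 2 (17.1% of all genes called higher) and 22 without transgenic replicate 4. It was 3 without transgenic replicate 3 (21.7% of all genes), 5 without transgenic replicate 1 or 5, and 4, 5, 5, 5 and 6 without control replicates 1, 3, 4, 5 and 6. Where no share of all genes is given, a move of the count cannot be told from a change in calling over all genes. Without all 3 of the high libraries, 26 of 28 genes rose, with a median of 1.23 and 15.0% of all genes called higher, and Stat2 and Oas2 were the 2 not called. In males alone, with 3 mice in each of these groups, 0 of 29 were called in edgeR, where 9.79% of all genes were called higher. Of these 29, 3 had an unadjusted p under 0.05 in edgeR, a level at which the share of all genes is not given. DESeq2 called 21 on the full data, with 20.3% of all genes called higher.

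**Figure D2:**
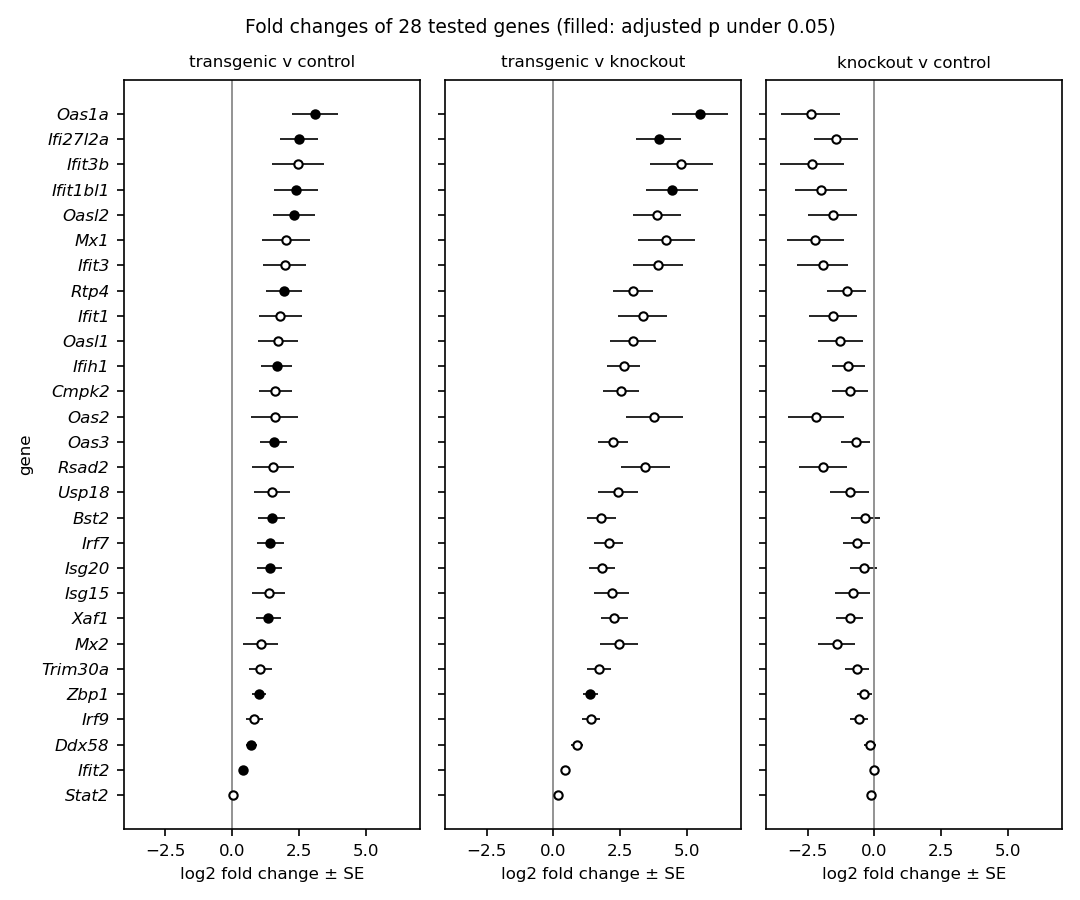
Fitted log2 fold change with its SE for the 28 tested genes in transgenic v control, transgenic v knockout-labelled and knockout-labelled v control, ordered by the first comparison. Filled points have an adjusted p under 0.05: 14 in transgenic v control, 4 in transgenic v knockout-labelled and 0 in knockout-labelled v control.

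**Figure D3:**
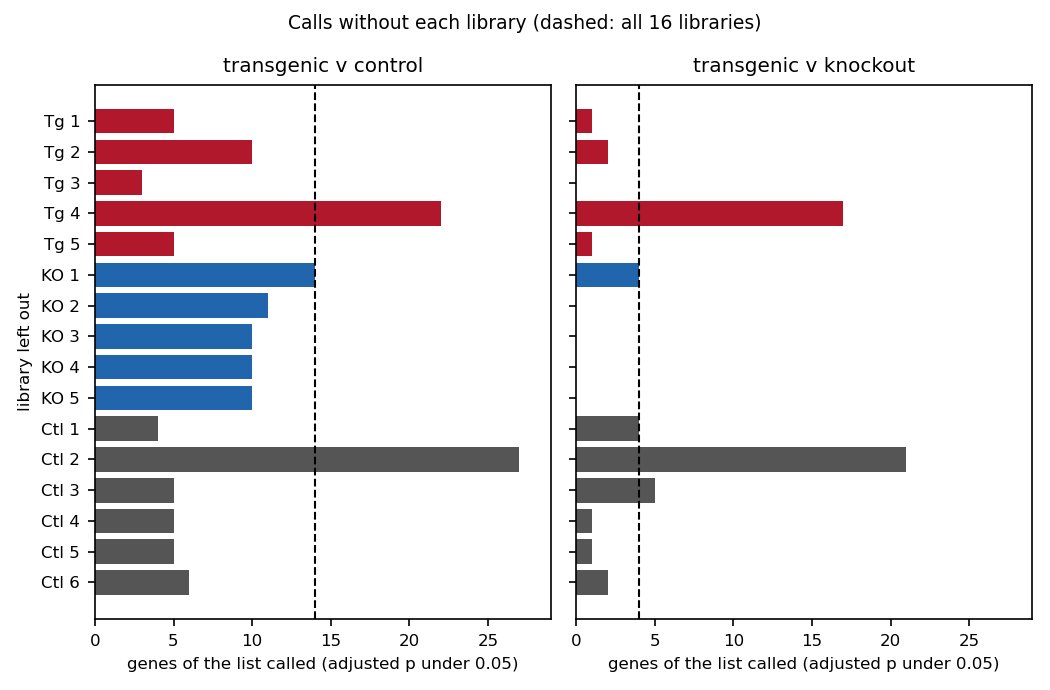
Number of the tested genes of the list called when each library is left out, for transgenic v control and transgenic v knockout-labelled; the dashed line is the count with all 16 libraries. The first count ran from 3 without transgenic replicate 3 to 27 without control replicate 2, and the second from 0 to 21.

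Among the Ifit genes, whose proteins bind foreign RNA and block its translation, Ifit2 was the steadiest. It was at 55.1, 57.9, 98.7, 57.3 and 78.1 CPM in transgenic libraries and at 49.0, 54.9, 53.8, 56.1 and 52.6 CPM in knockout-labelled ones, against 44.1 to 66.6 CPM with a median of 48.5 in controls. It rose by 0.40 on the log2 scale in transgenic v control (SE 0.11, edgeR adjusted p = 0.0109), and was called in each of the 16 fits that leave out 1 library. Transgenic replicates 3 and 5 stood above every other library, with control replicate 2 next. Ifit1bl1, a mouse gene related to Ifit1, was at 5.32, 3.44, 44.3, 2.55 and 17.2 CPM in transgenic libraries and at 0.297 to 1.87 CPM in knockout-labelled ones, against 0.438 to 13.5 CPM with a median of 0.604 in controls. Every transgenic library exceeded every knockout-labelled one. It rose by 2.39 in transgenic v control (SE 0.82, edgeR adjusted p = 0.0344) and was still called in 8 of the 16 fits that leave out 1 library.

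The other Ifit genes had large fold changes with large errors. Ifit1 was at 17.9, 9.76, 145, 9.2 and 66.2 CPM in transgenic libraries and at 3.99, 3.45, 3.2, 7.95 and 8.08 CPM in knockout-labelled ones, against 1.82 to 67.1 CPM with a median of 3.99 in controls. Control replicate 2, at 67.1 CPM, matched transgenic replicate 5, and all 5 transgenic libraries were above the other controls. The fitted transgenic v control change was 1.79 (SE 0.80, edgeR adjusted p = 0.0951). Ifit3, at chr19:34583531-34588731, was at 7.46, 3.12, 79.4, 2.77 and 29.5 CPM in transgenic libraries and at 1.1, 1.06, 2.03, 2.78 and 1.94 CPM in knockout-labelled ones, against 1.27 to 23.4 CPM with a median of 1.61 in controls. Transgenic replicate 4 and knockout-labelled replicate 4 were almost level. Its fitted change was 1.96 (SE 0.80, edgeR adjusted p = 0.0711). Ifit3b, the near copy at chr19:34607970-34613401, had 24.4, 12.6, 392.4, 9.8 and 121.5 estimated counts in transgenic libraries and 0 to 18.3 in knockout-labelled ones, against 140.9 in control replicate 2 and 0 to 4.9 in the other 5 controls. How reads that match both Ifit3 and Ifit3b were assigned is not stated, so the level of each alone is uncertain.

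ISG15 is a ubiquitin-like protein that is attached to other proteins, and USP18 removes it. Isg15, at chr4:156199424-156200818, was at 21.1, 10.7, 84.4, 10.4 and 50.6 CPM in transgenic libraries and at 7.98, 5.53, 6.13, 10.0 and 10.7 CPM in knockout-labelled ones, against 5.63 to 47.1 CPM with a median of 6.21 in controls. Transgenic replicates 2 and 4 were thus level with knockout-labelled replicates 4 and 5. The fitted transgenic v control change was 1.35 (SE 0.60, edgeR adjusted p = 0.0936). Usp18 was at 8.24 to 108 CPM in transgenic, 5.68 to 11.3 in knockout-labelled and 3.97 to 53.0 in control libraries (log2 fold change 1.48, SE 0.67, edgeR adjusted p = 0.101).

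Of the 3 transcription factor genes of the list, Irf7 and Irf9 had a like pattern over the libraries, with a larger change in Irf7, and Stat2 did not share it. Irf7, at chr7:141262706-141266481, was at 46.1, 28.0, 167, 29.4 and 102 CPM in transgenic libraries and at 19.0, 14.7, 15.8, 16.4 and 24.3 CPM in knockout-labelled ones, against 13.6 to 79.4 CPM with a median of 15.7 in controls. Each transgenic library was above every knockout-labelled one, and above each control but replicate 2. It rose by 1.41 in transgenic v control (SE 0.50, edgeR adjusted p = 0.041), a call kept in 4 of the 16 fits that leave out 1 library. Irf9, which gives the DNA-binding part of the STAT complex, was at 61.6 to 193 CPM in transgenic, 33.0 to 49.1 in knockout-labelled and 39.2 to 125 in control libraries (log2 fold change 0.81, SE 0.32, edgeR adjusted p = 0.0641). Stat2 was described after its values were seen, as the flattest gene of the list. It was at 80.9, 71.0, 92.6, 74.7 and 87.3 CPM in transgenic libraries and at 75.9, 69.3, 72.8, 73.1 and 73.3 CPM in knockout-labelled ones, against 68.5 to 91.6 CPM with a median of 81.9 in controls. The groups overlapped, and the fitted transgenic v control change was 0.01 (SE 0.07, edgeR adjusted p = 0.912); its sign was negative under several other settings.

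**Figure D4:**
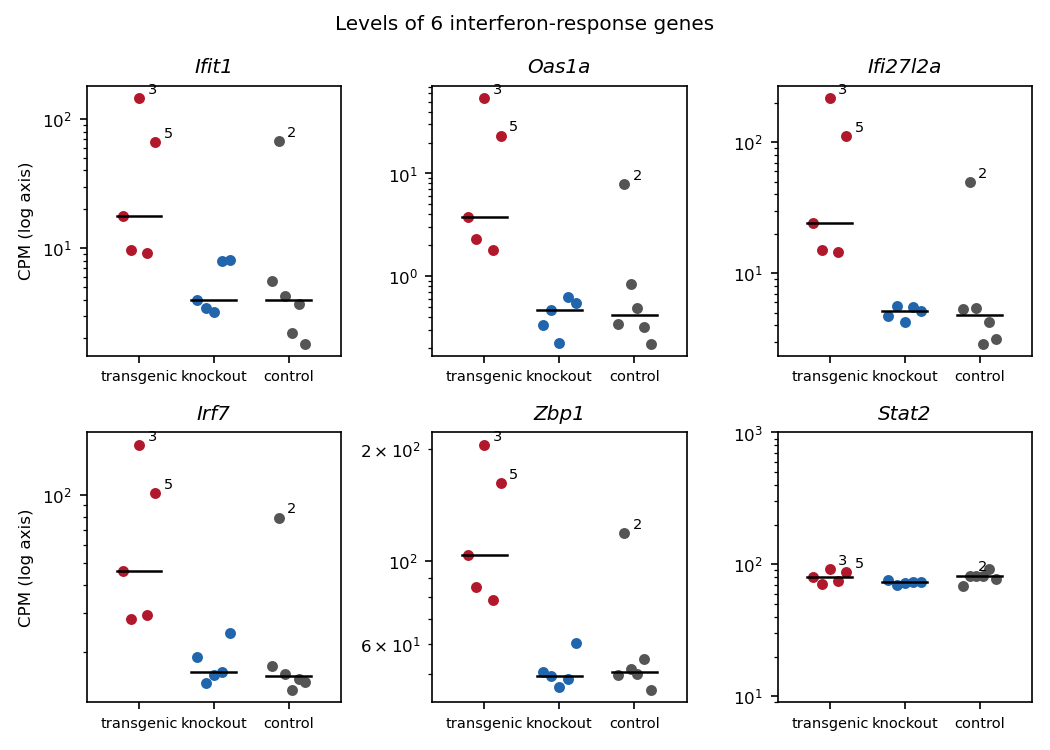
CPM of 6 genes of the list in each library on log axes, with points for mice and a line for the group median; transgenic replicates 3 and 5 and control replicate 2 are numbered. Those 3 libraries lie at the top for Ifit1, Oas1a, Ifi27l2a, Irf7 and Zbp1, while Stat2 spans only 68.5 to 92.6 CPM.

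All 3 sensor genes of the list rose in transgenic libraries. Zbp1, at chr2:173206612-173218923, was at 104, 85.3, 205, 78.6 and 162 CPM in transgenic libraries and at 50.6, 49.4, 46.2, 48.3 and 60.3 CPM in knockout-labelled ones, against 45.2 to 119 CPM with a median of 50.7 in controls. The transgenic and knockout-labelled libraries did not overlap, and the controls other than replicate 2 lay at 45.2 to 54.8 CPM. It rose by 0.99 in transgenic v control (SE 0.26, edgeR adjusted p = 0.0104) and was called in all 16 fits that leave out 1 library. Ddx58, which encodes the RNA helicase RIG-I, was at 108, 90.7, 205, 98.8 and 158 CPM in transgenic libraries and at 75.3, 69.3, 64.4, 69.1 and 90.7 CPM in knockout-labelled ones, against 64.1 to 133 CPM with a median of 68.0 in controls. Knockout-labelled replicate 5 almost reached the level of transgenic replicate 2. It rose by 0.70 (SE 0.21, edgeR adjusted p = 0.02), called in 13 of the 16 fits that leave out 1 library. Ifih1, which encodes the RNA sensor MDA5, was at 10.0 to 68.1 CPM in transgenic, 3.87 to 6.19 in knockout-labelled and 2.65 to 30.3 in control libraries. It rose by 1.65 (SE 0.57, edgeR adjusted p = 0.0367), a call kept in 4 of the 16 fits.

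The oligoadenylate synthetases make a messenger that activates RNase L. Oas1a was at 3.81, 2.3, 53.9, 1.81 and 23.4 CPM in transgenic libraries and at 0.339, 0.468, 0.225, 0.625 and 0.547 CPM in knockout-labelled ones, against 0.221 to 7.92 CPM with a median of 0.419 in controls. Every transgenic library lay above every knockout-labelled one, and control replicate 2 exceeded transgenic replicates 1, 2 and 4. It had the largest fold change of the tested genes of the list in transgenic v control, 3.09 (SE 0.85, edgeR adjusted p = 0.0126), and was called in all 16 fits that leave out 1 library. Oas3 (1.54, SE 0.51) and the related Oasl2 (2.30, SE 0.78) rose as well, with edgeR adjusted p = 0.0313 and 0.0342, in 9 and 8 of the 16 fits that leave out 1 library. Oas2 (1.58, SE 0.88) and Oasl1 (1.70, SE 0.75) were not called, at adjusted p = 0.173 and 0.0917. The antiviral GTPase genes Mx1 (2.01, SE 0.90) and Mx2 (1.05, SE 0.64) were not called either, at edgeR adjusted p = 0.0967 and 0.213.

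Rsad2 encodes viperin, which makes a chain-terminating nucleotide, and Cmpk2 is a nucleotide kinase gene beside it. Rsad2 was at 9.42, 2.97, 61.5, 4.04 and 27.7 CPM in transgenic libraries and at 0.933, 1.62, 1.31, 4.37 and 3.87 CPM in knockout-labelled ones, against 0.772 to 34.5 CPM with a median of 2.09 in controls. Transgenic replicates 2 and 4 lay within the range of the knockout-labelled libraries. The fitted transgenic v control change was 1.52 (SE 0.79, edgeR adjusted p = 0.148), and that of Cmpk2 was 1.60 (SE 0.61, adjusted p = 0.055).

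Of the remaining effectors, Ifi27l2a, a gene of the small ISG12 family, was at 24.3, 15.0, 217, 14.5 and 112 CPM in transgenic libraries. It was at 4.75, 5.66, 4.28, 5.48 and 5.18 CPM in knockout-labelled libraries, against 2.9 to 49.9 CPM with a median of 4.82 in controls. Even the lowest transgenic library was above all libraries of the other groups but control replicate 2. It rose by 2.49 (SE 0.72, edgeR adjusted p = 0.0162), and the adjusted p passed 0.05 in 1 of the 16 fits that leave out 1 library, reaching 0.0506. Isg20, an exonuclease gene, was at 10.8, 7.46, 40.1, 9.41 and 27.3 CPM in transgenic libraries and at 5.47, 6.17, 5.05, 5.85 and 5.6 CPM in knockout-labelled ones, against 3.23 to 20.4 CPM with a median of 4.05 in controls. It rose by 1.39 (SE 0.46, edgeR adjusted p = 0.0302), and its transgenic and knockout-labelled libraries did not overlap. Bst2, which encodes the virus-tethering protein tetherin, rose by 1.46 (SE 0.52, edgeR adjusted p = 0.0415). Rtp4 rose by 1.93 (SE 0.66, adjusted p = 0.035) and Xaf1, a gene linked to apoptosis, by 1.34 (SE 0.47, adjusted p = 0.038) in the same edgeR test. Of the 16 fits that leave out 1 library, Bst2 was called in 3, Xaf1 in 4, Rtp4 in 7 and Isg20 in 8. Trim30a, an E3 ligase family gene, was at 65.5 to 308 CPM in transgenic, 37.0 to 57.7 in knockout-labelled and 36.9 to 167 in control libraries, and was not called (1.04, SE 0.42, edgeR adjusted p = 0.0686). Ifi44 did not pass the filter on low counts and was not tested. It had 8, 5, 202, 3 and 36 counts in transgenic libraries and 2, 3, 1, 0 and 1 in knockout-labelled ones, against 17 in control replicate 2 and 0 to 5 in the other controls.

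The transgenic libraries were next set against the knockout-labelled ones, which share their mouse prefix. No knockout-labelled library stood apart as control replicate 2 did. Every transgenic library was above every knockout-labelled one in 18 of 29 genes, against 2.33% of all genes. The 11 exceptions were Ifit2, Ifit3, Ifit3b, Isg15, Usp18, Stat2, Oas2, Mx1, Mx2, Rsad2 and Bst2. By the edgeR test, 4 of 28 rose and 0 fell, where 1.07% of all genes were called higher and 0.0938% lower, and the median log2 fold change was 2.49 against 0.00 over all genes. Those 4 were Oas1a (5.46, SE 1.04, adjusted p = 0.0198), Zbp1 (1.37, SE 0.28, 0.0313), Ifi27l2a (3.93, SE 0.83, 0.0384) and Ifit1bl1 (4.41, SE 0.97, 0.049). At an unadjusted p under 0.05 the count was 27, a level at which the share of all genes is not given. DESeq2 called 26, with 1.85% of all genes called higher. The edgeR count was 17 without transgenic replicate 4, 21 without control replicate 2 (1.39% of all genes called higher), and 10 without all 3 of the high libraries (0.736% of all genes called higher). It was 0 without transgenic replicate 3 (0.743% of all genes) or without any of knockout-labelled replicates 2 to 5, 1 without transgenic replicate 1 or 5 or control replicate 4 or 5, and 2 without transgenic replicate 2 or control replicate 6.

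Knockout-labelled thymocytes were set against controls to see what accompanies the Nfkbid-/- genotype. None of the 28 tested genes was called in edgeR, where 16.4% of all genes were called higher and 10.0% lower, and none had an unadjusted p under 0.05. DESeq2 also called 0, with 8 lower at an unadjusted p under 0.05, a level at which the share of all genes is not given. All 28 fitted changes were below 0, with a median of -0.95 against 0.02 over all genes. The smallest p values belonged to Oas1a (-2.38, SE 1.11, adjusted p = 0.132) and Rsad2 (-1.91, SE 0.90, adjusted p = 0.139). In both genes the knockout-labelled libraries lay within the range of the controls. Without control replicate 2 and transgenic replicates 3 and 5, 22 of the 28 fitted changes were above 0, with a median of 0.19, so that the direction rested on the high libraries. Isg20 was then called higher (0.48, SE 0.13, edgeR adjusted p = 0.026), where 8.51% of all genes were, and without control replicate 1 Stat2 was called lower (adjusted p = 0.034); each was the single gene called in that fit. No gene of the list had every knockout-labelled library above, or every one below, every control. Transgenic and knockout-labelled groups were both set against the same controls, so these comparisons are not independent.

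Male libraries were set against female ones in the same fit, as the 3 highest libraries were all male. By edgeR 0 of 28 genes were called, where 0.0603% of all genes were called higher and 0.0804% lower. At an unadjusted p under 0.05, 24 of the 28 were higher, a level at which the share of all genes is not given. Of the 28 fitted changes, 27 were above 0, with a median of 1.63. Without the 3 high libraries, 19 were above 0 and 9 below, with a median of 0.14, and 1 had an unadjusted p under 0.05 in edgeR. The direction in males thus rested largely on those 3 libraries. DESeq2 called 4 higher, where 0.315% of all genes were. Without a sex term the transgenic v control count was 7 and the transgenic v knockout-labelled count 0.

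Transcripts of the interferons themselves were almost absent from the sorted cells. Of 21 interferon genes, 17 had 0 counts in all 16 libraries, Ifnb1 and most Ifna genes among them, which allows up to 3 counts in a library. Of the 21, 20 never exceeded 3 counts in a library, and the highest, Ifnk, reached 4. None passed the filter, so none was tested. Ifng had 6 counts in all.

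Receptor and signalling genes changed less. Of 9 tested, 3 rose and 0 fell in transgenic v control (median 0.04), a number to be read against the 23.0% of all genes called higher. Ifnar2, a receptor chain, rose by 0.29 (SE 0.08, edgeR adjusted p = 0.00622), with 59.4 to 74.6 CPM in transgenic libraries against 49.1 to 59.9 CPM in controls. The other chain, Ifnar1, was at 158 to 182 CPM in transgenic and 161 to 174 CPM in control libraries (0.06, SE 0.05, edgeR adjusted p = 0.376).

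Among 11 tested genes of nucleic acid sensing and interferon induction, 3 rose and 1 fell in transgenic v control, near the 23.0% higher and 15.6% lower of all genes. Irf3, a factor that induces interferon genes, fell by 0.19 (SE 0.04, edgeR adjusted p = 0.00392), and Tmem173, which encodes STING, rose by 0.51 (SE 0.14, adjusted p = 0.00843). Of 11 tested feedback inhibitors and nucleases, 5 rose and 0 fell. Samhd1, a deoxynucleotide hydrolase gene, was at 15.1, 10.3, 29.7, 12.1 and 17.2 CPM in transgenic libraries and at 4.18 to 6.79 CPM in knockout-labelled ones, against 3.12 to 7.48 CPM with a median of 4.81 in controls. All transgenic libraries, replicates 2 and 4 included, were above every other library, control replicate 2 among them. It rose by 1.76 in transgenic v control (SE 0.26, edgeR adjusted p = 0.000183) and by 1.71 in transgenic v knockout-labelled (SE 0.27, adjusted p = 0.0041). Rnaseh2a, an RNase H2 subunit gene, rose by 0.38 in transgenic v control (SE 0.05, edgeR adjusted p = 8.68e-05) and by 0.38 in knockout-labelled v control (SE 0.05, adjusted p = 0.000416).

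A further list of 43 interferon-stimulated genes outside the 29 was described in the same way. Of 40 tested, 17 rose and 0 fell in transgenic v control (median 0.55), 9 rose and 0 fell in transgenic v knockout-labelled (median 0.94), and 0 rose and 2 fell in knockout-labelled v control (median -0.36). Over all genes 23.0% and 1.07% were called higher in the first 2 comparisons and 10.0% lower in the third, so that 2 of 40 is no more than the background. The 2 that fell were Ube2l6 and Mndal. Ly6a, which encodes the surface protein Sca-1, was at 10.8, 6.8, 62.1, 5.85 and 26.9 CPM in transgenic libraries and at 0.589 to 1.4 CPM in knockout-labelled ones, against 0.274 to 8.99 CPM with a median of 0.497 in controls. The highest control was again replicate 2. It rose by 3.44 in transgenic v control (SE 0.72, edgeR adjusted p = 0.00258) and by 4.91 in transgenic v knockout-labelled (SE 0.85, adjusted p = 0.0115). Tor3a, an interferon-induced ATPase gene, rose by 0.91 (SE 0.15, edgeR adjusted p = 0.000194) and by 0.64 (SE 0.15, adjusted p = 0.0409) in the same comparisons.

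Markers of other cells differed between the groups, and their part in these results was not tested. Their counts are to be read against all genes, of which 23.0% were called higher and 15.6% lower in transgenic v control. The shares were 1.07% higher and 0.0938% lower in transgenic v knockout-labelled, and 16.4% higher and 10.0% lower in knockout-labelled v control. In transgenic v control, 11 of 12 tested B cell markers rose, with Jchain at 4.23 (SE 0.33, edgeR adjusted p = 1.67e-06) and Ighm at 0.58 (SE 0.06, adjusted p = 1.06e-05). Their summed level was 668 to 853 CPM in transgenic against 393 to 460 CPM in control libraries. Most of that sum was Ighm, at 562 to 675 CPM in transgenic and 383 to 447 CPM in control libraries. Of 9 tested markers of mature single-positive thymocytes 7 rose (1199 to 1671 against 740 to 1117 CPM), with Ms4a6b at 0.75 (SE 0.12, edgeR adjusted p = 0.000337) and Plac8 at 2.34 (SE 0.43, adjusted p = 0.00113). Of 10 double-positive markers 8 fell, among them Cd4 at -0.45 (SE 0.09, edgeR adjusted p = 0.000835). Markers of conventional dendritic cells rose in 6 of 8 tested genes (12.7 to 17.4 against 4.27 to 7.16 CPM summed over 10 genes), with Itgax at 3.36 (SE 0.61, edgeR adjusted p = 0.000712) and Flt3 at 1.19 (SE 0.36, adjusted p = 0.0151). Macrophage markers rose in 7 of 9 tested genes (23.1 to 30.4 against 13.4 to 20.9 CPM), with Adgre1 at 2.41 (SE 0.51, edgeR adjusted p = 0.00163) and Csf1r at 2.60 (SE 0.65, adjusted p = 0.00576). Of 7 tested markers of plasmacytoid dendritic cells, the main producers of type I interferon, 3 rose and 0 fell. The list did not move as a whole, with 4 fitted changes above 0, 3 below and a median of 0.07. Irf8 was at 1.22 (SE 0.17, edgeR adjusted p = 0.000113) and Spib at 2.74 (SE 0.41, adjusted p = 0.000127). The sum of these plasmacytoid markers was 1684 to 2062 CPM in transgenic and 1923 to 2132 CPM in control libraries, most of it Ccr9, which thymocytes express. Siglech, their defining marker, was at 1.27, 2.93, 2.04, 2.13 and 1.19 CPM in transgenic libraries and at 0.0852 to 1.28 CPM in knockout-labelled ones, against 0.107 to 0.662 CPM in controls (2.37, SE 0.48, edgeR adjusted p = 0.00131 in transgenic v control). Markers of natural killer, innate lymphoid and gamma-delta cells rose in 4 of 6 tested genes (833 to 949 against 527 to 719 CPM), with Il2rb at 1.58 (SE 0.30, edgeR adjusted p = 0.000758) and Gzma at 1.14 (SE 0.23, adjusted p = 0.00183). None of 4 tested thymic epithelial, 5 erythroid and 1 granulocyte markers was called in edgeR, with 1, 0 and 0 at an unadjusted p under 0.05, and the granulocyte genes Ly6g and Elane had 0 counts in all libraries. Stromal markers had 1 of 6 higher, Vim at 0.47 (SE 0.10, edgeR adjusted p = 0.00275), and 1 lower, Col1a2 at -0.98 (SE 0.18, adjusted p = 0.000814). In transgenic v knockout-labelled, 7 of the 12 B cell markers, 2 of the 9 mature single-positive markers and 1 of the 7 plasmacytoid markers rose, and Col1a2 fell. None of the double-positive, conventional dendritic cell, macrophage or natural killer lists had a gene called by edgeR in that comparison, with 2, 2, 7 and 1 genes at an unadjusted p under 0.05. The share of all genes at the unadjusted level is not given for any of these lists. In knockout-labelled v control, 3 B cell list genes rose (Cd74, H2-Aa and H2-Ab1) and 2 fell, and 3 of the 10 double-positive markers fell and 1 rose. Cd4 was at -0.35 there (SE 0.09, edgeR adjusted p = 0.00918), Irf8 at 0.67 (SE 0.18, adjusted p = 0.0122), Il2rb at 1.04 (SE 0.30, adjusted p = 0.0193) and Gzma at 0.83 (SE 0.24, adjusted p = 0.0196). Il7r and Vim rose and Ccr9 fell in it as well, and none of the conventional dendritic cell and macrophage markers was called, with 2 and 0 at an unadjusted p under 0.05. Part of the marker difference from controls was thus measured in both Nfkbid groups, which share those controls.

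These sums were also read in the 3 libraries with the highest interferon-response levels. In control replicate 2, the macrophage sum was 18.8 CPM, within the 13.4 to 20.9 CPM of the controls, and the conventional dendritic cell sum was 6.99 CPM, within 4.27 to 7.16. Siglech was at 0.37 CPM there, within the control range. The plasmacytoid sum in control replicate 2 was the highest of the controls, at 2132 CPM, with Ccr9 at 2046 CPM. Its double-positive sum, at 8198 CPM, was also the highest of the controls. For transgenic replicate 3 the plasmacytoid sum was the highest of its group, at 2062 CPM, with Ccr9 at 1963 CPM and Siglech at 2.04 CPM. In transgenic replicate 3, the macrophage sum of 23.1 CPM was the lowest of the transgenic libraries, and the B cell sum of 727 CPM lay in the middle of their range. The mature single-positive sum was highest in transgenic replicate 3, at 1671 CPM against 1199 to 1279 CPM in the other transgenic libraries, and was 953 CPM in control replicate 2, within the control range. Transgenic replicate 5 had the highest B cell and conventional dendritic cell sums of its group, at 853 and 17.4 CPM. Of these B cell sums, Ighm made up 580 CPM in transgenic replicate 3 and 675 CPM in transgenic replicate 5. Nfkbid was lowest, at 115 CPM, in transgenic replicate 3, the transgenic library with the highest level of every gene of the list.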

How the data were processed

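Each of 16 deposited files holds an estimated count and a TPM value for every gene, which the authors made from stranded KAPA libraries of total RNA. Bowtie 1.0.0, SAMtools 0.1.18, edgeR 3.24.3 and GRCm38 (mm10) are named per the submitters' processing notes; the sources used here do not name the counting program. A share of 58.7% of the deposited counts above 0 was whole within 1e-06. The deposited TPM values were used only for levels between genes.

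Symbols came from a GENCODE annotation of GRCm38 for 46005 of 46517 identifiers; the other 512 held 0.171% of counts. After rounding, the counts went into edgeR 4.0.16 (R 4.3.3): expression filter by group, TMM scaling, and a robust quasi-likelihood fit of group and sex to all 16 libraries (14933 genes, 12 residual degrees of freedom). Adjusted p is the Benjamini-Hochberg value over those genes, two-sided, and the SE is the log2 fold change divided by the square root of F. Fold changes are on the log2 scale. CPM values use TMM-scaled totals. Motifs were searched in RefSeq promoters of GRCm38.p6. The fit was tested on simulated data.

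The genes, lists and alternatives were chosen with earlier results of these data known. Values in every transgenic library were given for the 6 called genes with the smallest p and the 3 with the largest fold in transgenic v control. The same was done for the 2 with the smallest p in each other group comparison, and for Ifit1, Ifit3, Ifit3b, Isg15 and Irf7. For these genes, knockout-labelled values are listed or given as a range, and control values are given mainly as a range and median. Of each other list, the 2 with the smallest p are given. Some of these single genes are left out of the text. Stat2, Ifi44, Ifnar1 and Siglech were described after their values were seen. Alternatives were DESeq2 1.42.0, RLE factors, other filters, no sex term, the groups compared alone, males alone, a replicate block, a fit that is not robust, and leaving out libraries. Libraries are from separate mice by their identifiers.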

Additional observations from a re-analysis of the deposited data

Results flagged for a closer look

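Dixon's test at 95% was applied to each of the 29 genes in each of the 3 groups (87 groups of values). It marked 28 of them, and in 27 the sample far from the others was control replicate 2, at the top of the 6 controls. Chance marks about 1 in 20 such groups, and the genes are not independent, since all marks but 1 fall on the same library. The difference of that library from the other controls was not tested further, and its cause was not tested.

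In control replicate 2, the Ifit genes Ifit1, Ifit3, Ifit3b and Ifit1bl1 were at 67.1, 23.4, 5.22 and 13.5 CPM. Isg15 was at 47.1 CPM and Usp18 at 53.0 CPM. The transcription factor genes Irf7 and Irf9 were at 79.4 and 125 CPM. The sensor genes Ddx58, Ifih1 and Zbp1 were at 133, 30.3 and 119 CPM. Oas1a, Oas2, Oas3, Oasl1 and Oasl2 were at 7.92, 37.2, 55.7, 12.1 and 23.1 CPM. Mx1 was at 15.1 CPM, Mx2 at 44.2, Rsad2 at 34.5 and Cmpk2 at 17.4 CPM. Isg20 was at 20.4 CPM, Ifi44 at 0.629, Ifi27l2a at 49.9 and Bst2 at 31.9 CPM. Rtp4, Xaf1 and Trim30a were at 45.7, 41.9 and 167 CPM. Ifit2 and Stat2 were the 2 genes of the list in which this library was not marked.

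In the transgenic group the single mark was Ifi44 in replicate 3, at 8.77 CPM. Replicates 3 and 5 are both high in that group, so a test for 1 distant sample does not mark either of them in the other genes.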

How the results depend on the processing

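The transgenic v control count of 14 became 5 with no filter on low counts, 7 with no sex term, 4 with the groups compared alone, 0 in males alone, 1 with the replicate block, 26 without control replicate 2 and transgenic replicates 3 and 5, and 2 without control replicate 1 and knockout replicates 1 to 3. That last choice was added after seeing the data, on account of MHC class II transcripts, whose levels by library are not given here. It kept the transgenic libraries, although the MHC class II genes H2-Aa and H2-Ab1 were called higher in transgenic v control by edgeR. The transgenic v knockout-labelled count of 4 became 26 with DESeq2, 18 with a fit that is not robust, 10 without the 3 high libraries, 2 with no filter, and 0 with no sex term, the groups compared alone, males alone, the replicate block, or without control replicate 1 and knockout replicates 1 to 3. Knockout-labelled v control had 0 called, and 1 without the 3 high libraries. Male v female had 0, and 4 with DESeq2. Leaving out 1 library at a time gave 3 to 27, 0 to 21, 0 to 1 and 0 to 0 calls in these comparisons. The cause of these moves was not tested, beyond the 9 called and 9 uncalled genes near the threshold in transgenic v control. For counts without a share of all genes, here and above, a change in calling over all genes cannot be told apart. Residual correlations between groups ran from -0.18 to 0.25 for same-numbered libraries and from -0.38 to 0.27 for the others. These ranges overlapped, so they did not show that the replicate numbers pair the mice, and they cannot exclude it.

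Signs turned for Stat2 in transgenic v control, to -0.0219 with DESeq2 and with RLE factors, -0.0157 with no filter, -0.0244 with the stricter filter (1 CPM in at least 5 libraries), -0.0227 with the groups compared alone, -0.13 without the 3 high libraries and -0.0472 without control replicate 1 and knockout replicates 1 to 3, and from -0.0654 to 0.0373 on leaving out 1 library. In transgenic v knockout-labelled, Stat2 was at -0.0108 without the 3 high libraries. Without these libraries, the knockout-labelled v control changes of Rsad2, Ifit1, Ifit3b, Isg15 and Irf7 were 0.13, 0.45, 1.08, 0.37 and 0.21. Without control replicate 2 alone, those of Ifit1, Ifit3b and Isg15 were 0.0913, 0.79 and 0.09, the top of ranges that reached down to -2.01, -2.79 and -1.28 when other libraries were left out. Depth limits Ifi44 and Ifit3b, which had libraries at 0 counts.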

Other observations

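Transgenic replicate 5 and control replicate 2, with summed levels of 1772 and 1450 CPM over the list, did not match gene by gene. Ifit1 was at 66.2 CPM in transgenic replicate 5 and 67.1 CPM in control replicate 2. Rsad2 was at 27.7 and 34.5 CPM in the same libraries and Mx2 at 32.3 and 44.2 CPM, higher in the control. Oas1a was at 23.4 and 7.92 CPM, Ifi27l2a at 112 and 49.9 CPM, and Ly6a at 26.9 and 8.99 CPM, higher in the transgenic library. These are single libraries with no replicate check, and the pairs were chosen after their values were seen.

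Samhd1 and Tor3a kept a transgenic level above that of control replicate 2 in every transgenic library, at 10.3 to 29.7 CPM against 7.48 CPM for Samhd1 and at 6.99 to 11.5 CPM against 5.14 CPM for Tor3a. Of the 29 genes, none had every transgenic library above that control. The share of all genes that did was not computed. Samhd1 and Tor3a were named for a small p in transgenic v control, and other genes so named did the same. Ifnar2 was at 59.4 to 74.6 CPM against 49.1 CPM, and Irf8 at 15.3 to 19.7 CPM against 8.36 CPM.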
